A study of Mus musculus with 3 samples.

Results

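Nrf2, the protein of Nfe2l2, is a transcription factor that turns on genes for quinone reduction, glutathione synthesis and peroxide removal, and 10 genes of this system were followed: Nfe2l2, Nqo1, Gclc, Gclm, Hmox1, Txnrd1, Srxn1, Gpx2, Gsr and Slc7a11. They were chosen by name, and every probe set whose single gene symbol in the platform annotation is one of them was taken. This gave 20 probe sets for the 10 genes, out of 34945 probe sets for 18193 genes with 1 symbol. RNA came from follicle-associated epithelium, the epithelial layer that covers the lymphoid follicles of the small intestine and holds antigen-sampling M cells. Expression was measured on 3 Affymetrix arrays of untreated C57BL/6 mice. There was 1 array of wild type RBP-J epithelium, and 2 arrays of epithelium depleted of RBP-J, from VillinCre-Rbpjflox/flox mice. In these mice a Cre recombinase under the Villin promoter, active in intestinal epithelium, removes Rbpj, whose protein binds DNA and carries the transcriptional output of Notch receptors. Age, sex and the number of animals per array are not given in the labels, and the Cre and floxed alleles are named for the depleted mice only. The question is how these genes differ when RBP-J is depleted.

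In resting cells Keap1 holds Nrf2 and hands it to a ubiquitin ligase for destruction. Oxidants and electrophiles modify Keap1, Nrf2 then accumulates, pairs with small Maf proteins and binds antioxidant response elements, while Bach1 competes for the same sites. Glutathione, a thiol peptide made from glutamate, cysteine and glycine, is the main soluble thiol that its targets make, recycle and use, and intestinal epithelium meets oxidants from food, bacteria and immune cells.

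The arrays of depleted epithelium are called depleted array 1 and 2, as the labels number them. Each value is an intensity relative to the median of its array. Differences are depleted minus wild type on the log2(value + 0.248) scale, which understates the folds of dim probe sets. For the 11885 genes tested the median difference was -0.003 (array 1) and 0.22 (array 2), so array 2 stood higher as a whole. A gene was called at a limma adjusted p under 0.05, with the brightest probe set standing for a gene and the spread taken from the 2 depleted arrays. By this test limma called 0 of the 10 genes, where 0.0841% of all genes were called. The glutathione genes Gclm, Gsr and Gpx2, with Hmox1 and Txnrd1, read below wild type in depleted array 1 and above in depleted array 2. Their log2 differences lay between -0.32 (Txnrd1) and -0.08 (Gsr) in array 1, and between 0.45 (Txnrd1) and 0.72 (Hmox1) in array 2. Srxn1 and Slc7a11 read above wild type in both, and Nfe2l2, Nqo1 and Gclc below it in both.

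The depleted arrays were checked against Rbpj first. In the order wild type, depleted array 1, depleted array 2, its brightest probe set read 7.15, 2.72 and 5.74, and the other probe sets read 5.37, 4.14 and 4.92, and 3.79, 2.30 and 4.21. Rbpj was thus lower in every probe set of depleted array 1 and higher in 1 of the 3 in depleted array 2. Their place relative to the deleted exons is not stated in the labels, so they may not check the deletion. The epithelial markers Epcam and Vil1 read 109, 129 and 153, and 70.7, 85.3 and 78.6, in the same order. Of 8 M cell markers, 4 were above wild type in both depleted arrays (Marcksl1, Ccl9, Anxa5 and Tnfaip2) and 1 was below in both (Sox8). Gp2, Ccl20 and Spib were below in depleted array 1 and above in depleted array 2. Over all genes tested 39% were above in both and 19.5% below in both. Some of these marker differences were very small, at 0.008 for Tnfaip2 in array 1 and -0.02 for Sox8 in array 2 on the log2 scale. Marcksl1 read 60.4, 84.9 and 94.6, and Gp2 read 19.8, 9.90 and 32.6. B cell markers, of which 7 of 8 were tested, summed to 38.1, 16.8 and 38.3. Of these 7, 3 were below wild type in both depleted arrays (Cr2, Ms4a1 and Cd22) and 1 was above in both (Blk). Cd79a, Cd79b and Fcer2a were below in depleted array 1 and above in depleted array 2. The 7 goblet cell markers summed to 485, 778 and 652, and 6 of them were above wild type in both depleted arrays. Muc2 was not, at 67.2, 127 and 62.6, and Spdef lay near wild type in depleted array 2, at 2.38, 5.18 and 2.46. Xist read 0.297, 42.8 and 43.4 and the Y-linked Eif2s3y 20.6, 0.122 and 0.056. By these sex-linked genes the wild type array differed in sex from both depleted arrays, so genotype cannot be told apart from sex. The 3' to 5' ratio of the Gapdh controls, which reflects RNA integrity, was 1.83, 2.28 and 1.54. That of the beta-actin controls differed less, at 1.11, 1.15 and 1.02. The part of these differences in the results on the 10 genes was not tested.

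To show the sequence near the starts of genes that lay on 1 side of wild type, the 250 bases before the start of 4 members are printed. These are Srxn1 and Slc7a11, whose brightest probe set was higher than wild type in both depleted arrays, and Nfe2l2 and Nqo1, whose brightest probe set was lower in both. Gclc was also lower in both and, like Gsr and Hmox1, is not printed. The sequences are from RefSeq, build GRCm38.p6, read in the direction of the gene, and 7 of the 10 members matched an entry. Capitals mark matches, on either strand, to the core of the antioxidant response element, spelled as TGACNNNGC or TGAGNNNGC.
Srxn1 (chr2:152105274-152105523, plus strand): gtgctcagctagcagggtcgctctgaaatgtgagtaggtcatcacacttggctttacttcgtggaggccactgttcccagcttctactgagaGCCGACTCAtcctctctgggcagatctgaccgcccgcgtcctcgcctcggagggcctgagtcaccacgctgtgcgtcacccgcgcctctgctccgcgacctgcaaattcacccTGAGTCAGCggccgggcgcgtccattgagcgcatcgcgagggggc
Slc7a11 (chr3:50443614-50443863, minus strand): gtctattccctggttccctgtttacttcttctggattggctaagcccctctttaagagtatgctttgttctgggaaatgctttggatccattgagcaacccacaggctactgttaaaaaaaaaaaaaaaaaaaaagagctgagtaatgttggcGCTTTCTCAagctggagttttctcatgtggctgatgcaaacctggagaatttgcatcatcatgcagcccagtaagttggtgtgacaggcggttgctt
Nfe2l2 (chr2:75704664-75704913, minus strand): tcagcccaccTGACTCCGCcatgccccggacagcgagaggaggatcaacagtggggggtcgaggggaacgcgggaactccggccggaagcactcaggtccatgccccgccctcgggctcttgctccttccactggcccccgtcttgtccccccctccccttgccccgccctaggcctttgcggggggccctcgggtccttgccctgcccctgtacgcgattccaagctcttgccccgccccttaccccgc
Nqo1 (chr8:107403206-107403455, minus strand): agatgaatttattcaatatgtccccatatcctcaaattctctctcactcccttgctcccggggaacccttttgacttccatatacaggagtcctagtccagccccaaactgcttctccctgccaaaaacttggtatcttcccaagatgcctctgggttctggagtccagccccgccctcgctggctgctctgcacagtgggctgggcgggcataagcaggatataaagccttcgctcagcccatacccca
Srxn1 held 2 matches to TGAGNNNGC, at 45 to 37 bases before the start on the printed strand and at 158 to 150 bases on the other. Slc7a11 held 1 match to TGAGNNNGC, on the other strand, and Nfe2l2 held 1 match to TGACNNNGC, on the printed strand. Nqo1 held none in this window. Over the 9 windows of the 7 members, counting 3 starts of Txnrd1, 5 held a match to either spelling, which 23% of all 32851 windows of this length in the table hold. No member's window held GTGGGAA, a spelling of the RBP-J site that 5.42% of all windows hold on either strand. A match is a description of the letters and not a site, and matches of the different spellings did not overlap in the printed windows.

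Nfe2l2, the gene of Nrf2 itself, differed little in its bright probe set. That probe set, 1416543_at, read 36.4 in wild type, 33.1 in depleted array 1 and 32.7 in depleted array 2. Both depleted values lay below wild type and close to each other. The log2 difference was -0.15 (SE 0.42, 95% interval -0.97 to 0.68), and limma gave an adjusted p = 0.9997, as it did for each of the 10 genes. The dimmer probe set, 1457117_at, read 2.36 in wild type, 1.52 in depleted array 1 and 1.07 in depleted array 2, which are log2 differences of -0.56 and -0.99. It lay lower in both depleted arrays too, and tested on its own it gave a mean difference of -0.77 (SE 0.56, limma adjusted p = 0.9999).

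Nqo1, a quinone reductase and a standard readout of Nrf2 activity, was measured by 1 probe set, 1423627_at. It read 10.1 in wild type, 7.84 in depleted array 1 and 8.92 in depleted array 2. Both depleted values were below wild type, by log2 differences of -0.36 and -0.17. The mean difference was -0.27 (SE 0.47, 95% interval -1.20 to 0.67) and was not called. Hmox1, which opens heme to biliverdin, iron and carbon monoxide, was measured by probe set 1448239_at. It read 2.53 in wild type, 2.18 in depleted array 1 and 4.32 in depleted array 2. The depleted arrays lay on opposite sides of wild type, by -0.19 and 0.72 on the log2 scale, and the mean difference of 0.26 (SE 0.51, 95% interval -0.74 to 1.27) was smaller than the gap of 0.91 between them. Macrophages also express Hmox1. Of 9 macrophage and dendritic cell markers, 6 passed the filter, and these summed to 64.8, 65.5 and 82.3 in the same order of arrays. Most of each sum was Lyz2, at 56.8, 55.7 and 70.0. By brightest probe set, 3 of the 6 were above wild type in both depleted arrays (Cd68, Itgam and Csf1r). C1qa was below in both, and Itgax and Lyz2 lay below in array 1 and above in array 2. Cd68 read 1.19, 2.11 and 2.07. Itgam read 0.543, 0.954 and 1.58 and passed the filter only through the depleted arrays. The macrophage markers Adgre1, Cd163 and Vsig4 were at or below 0.203 in every array, and the probe sets of Csf1r did not go the same way, at 2.38, 3.22 and 3.58 for the brightest, 2.12, 1.75 and 2.01 for the next and 1.60, 0.897 and 2.31 for the dimmest.

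Slc7a11, the cystine carrier that brings in the cysteine unit of glutathione, was dim in wild type. Its probe set 1420413_at read 0.500 in wild type, 0.585 in depleted array 1 and 1.39 in depleted array 2. Array 1 lay near wild type and array 2 at 2.78 times its value. The log2 difference of 0.64 (SE 0.62, 95% interval -0.57 to 1.85) was not called, and it went to 0.12 with a pseudocount of 5. The gene passed the filter, a mean of at least 0.598 over the arrays, only through depleted array 2, where it was high, so its test is not independent of that choice. With no filter limma gave an adjusted p = 1. The other probe set, 1443536_at, read 0.203, 0.291 and 0.366, below the pseudocount in wild type and under the array median throughout.

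Gclc and Gclm are the catalytic and the modifier subunit of glutamate-cysteine ligase, the enzyme of the first and rate-limiting step of glutathione synthesis. The probe sets of Gclc did not go the same way. Its brightest, 1424296_at, read 23.4 in wild type, 21.8 in depleted array 1 and 22.9 in depleted array 2, with log2 differences of -0.10 and -0.03. The other, 1455959_s_at, read 11.7 in wild type, 17.7 in depleted array 1 and 15.3 in depleted array 2, higher in both by 0.59 and 0.38. The suffix _s_at marks probe sets that the array's design took to match more than 1 transcript. The mean difference of Gclc was -0.07 (SE 0.44, 95% interval -0.93 to 0.80) from the brightest probe set and 0.21 from the mean of both, so its direction depends on the probe set. Gclm read 11.2 in wild type, 10.3 in depleted array 1 and 17.8 in depleted array 2 by probe set 1418627_at. It read 2.15, 2.37 and 3.85 by the dimmer 1439050_at. In both probe sets depleted array 1 lay near wild type and array 2 was higher, by 0.67 and 0.78 on the log2 scale. The mean difference of Gclm was 0.28 (SE 0.46, 95% interval -0.63 to 1.19).

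Gsr, the reductase that returns oxidised glutathione to its thiol form with NADPH, read 55.8 in wild type, 52.9 in depleted array 1 and 78.9 in depleted array 2 by probe set 1421817_at. Its other probe set, 1421816_at, read 19.0, 16.8 and 22.1. Both were slightly below wild type in depleted array 1 and above it in depleted array 2, the dimmer one by 0.21, about the 0.22 median of that array. Gpx2, the glutathione peroxidase of gut epithelium, was measured by 1 probe set, 1449279_at. It read 49.6 in wild type, 45.7 in depleted array 1 and 79.1 in depleted array 2. Array 1 lay just under wild type and array 2 at 1.59 times its value. The mean log2 differences were 0.21 for Gsr (SE 0.39, 95% interval -0.56 to 0.98) and 0.28 for Gpx2 (SE 0.40, 95% interval -0.50 to 1.05).

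Txnrd1 is the cytosolic thioredoxin reductase, which keeps the thioredoxin branch of thiol reduction running. Probe set 1421529_a_at read 34.1 in wild type, 27.2 in depleted array 1 and 46.7 in depleted array 2. Probe set 1424486_a_at read 11.3, 9.01 and 18.2, and 1424487_x_at read 5.84, 5.78 and 11.4. All 3 probe sets lay below wild type in depleted array 1 and above it in depleted array 2, where the differences were 0.45, 0.67 and 0.94 on the log2 scale. The suffix _x_at marks probe sets whose probes may also bind other transcripts. The mean difference from the brightest probe set was 0.06 (SE 0.42, 95% interval -0.76 to 0.89). Its sign turned to -0.13 with quantile normalization.

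Srxn1, sulfiredoxin, repairs overoxidised peroxiredoxins and has the most probe sets among the members. Its brightest, 1419942_at, read 35.7 in wild type, 44.9 in depleted array 1 and 53.2 in depleted array 2. Both depleted values were above wild type, by 0.33 and 0.57 on the log2 scale, and the mean difference was 0.45 (SE 0.41, 95% interval -0.35 to 1.25). Probe set 1426875_s_at read 30.0, 31.6 and 36.4, and 1451680_at read 13.9, 15.0 and 22.9. The dimmest, 1425351_at, read 4.83, 3.68 and 8.13 and lay below wild type in depleted array 1. In depleted array 2 all 4 probe sets were above wild type, by between 0.28 and 0.72. With quantile normalization the mean difference was 0.24.

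**Figure D1:**
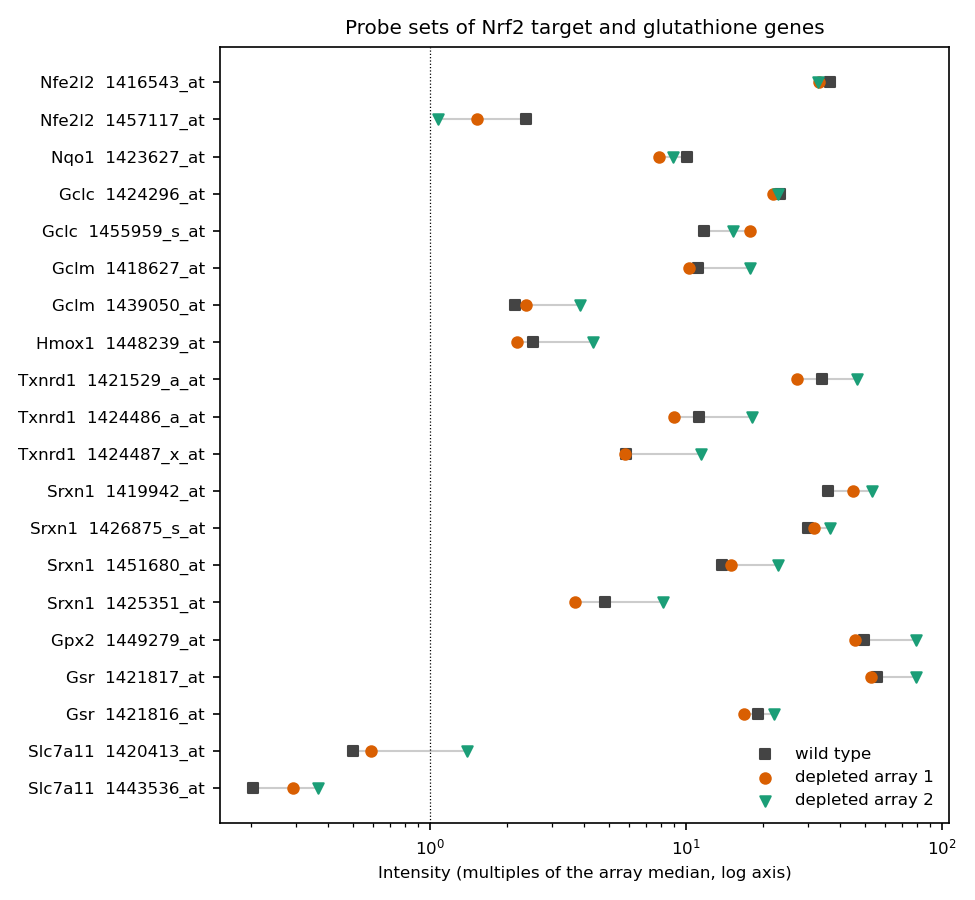
Intensity of each of the 20 probe sets in the wild type array (squares), depleted array 1 (circles) and depleted array 2 (triangles), in multiples of the array median on a log axis, with a grey line from the lowest to the highest value. Triangles lie to the right of the squares except for both probe sets of Nfe2l2, Nqo1 and the brighter probe set of Gclc.

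Across the 10 genes, limma called 0 in either direction, against 0.0841% of all genes called. An unadjusted limma p under 0.05 was met by 0 of the 10 and by 270 of all 11885 genes. Over the alternative settings with 1 value per gene the limma adjusted p lay between 0.9997 and 1. Arrays were also simulated from the mean values of the same 11885 genes. There limma called 1 of 50 genes with a log2 change of 1, 34 of 50 with 2 and 50 of 50 with 3. Changes near 2-fold were thus rarely called in the simulated arrays. Every simulated gene had the same spread and no array was shifted as a whole, unlike the data. These shares therefore need not hold for the 10 genes. None of the 10 genes was at least 2-fold higher in both depleted arrays, a mark that 0.841% of all genes met, and none was 2-fold lower in both, which 0.488% met. The 10 intervals had lower ends between -1.20 and -0.35 and upper ends between 0.67 and 1.85. They assume that the lone wild type array varies like the depleted ones.

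**Figure D2:**
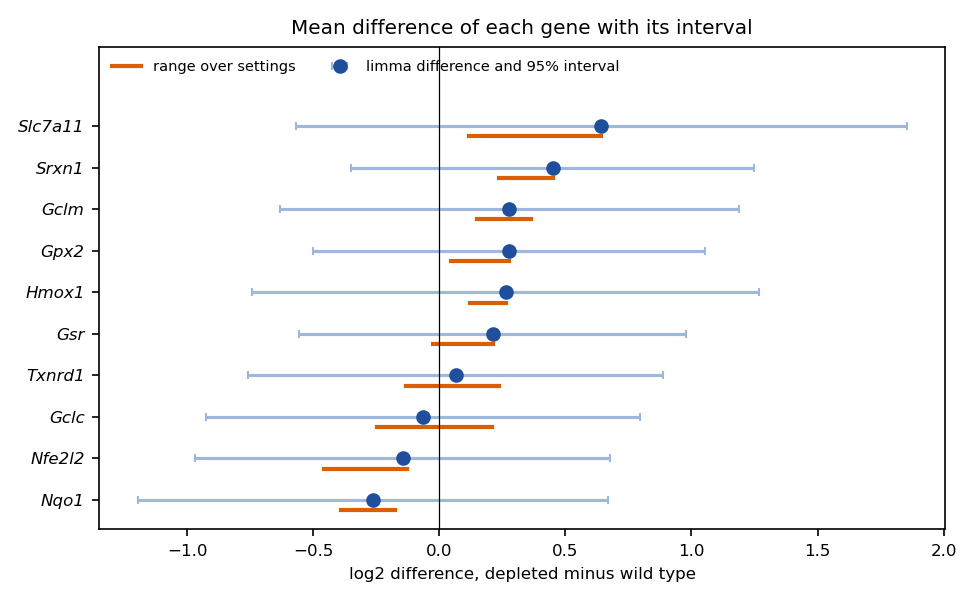
Mean log2 difference of each gene, depleted minus wild type, from limma (points) with its 95% interval (bars), and the range of that difference over the main setting and the alternative settings that give 1 value per gene (orange lines). Every interval holds 0, from Slc7a11 at 0.64 to Nqo1 at -0.27.

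The 10 genes fell into 3 orders of the arrays. Gclm, Hmox1, Txnrd1, Gpx2 and Gsr were below wild type in depleted array 1 and above it in depleted array 2, 5 of 10 genes where 30.7% of all genes showed that order. Srxn1 and Slc7a11 were above wild type in both, where 39% of all genes were. Nfe2l2, Nqo1 and Gclc were below wild type in both, where 19.5% were. Each gene kept its order after quantile normalization, after setting the 75th percentiles equal and after scaling to genes with a mean of at least 5. Averaging probe sets put Gclc and Gclm above wild type in both. The median difference of the 10 genes was -0.12 and 0.54 in the depleted arrays, against -0.003 and 0.22 over all genes tested. With quantile normalization these medians were -0.16 and 0.16, against 0.00 and 0.02.

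The gap between the depleted arrays can be set against the difference from wild type. Without rescaling, depleted array 2 read higher than array 1 in 9 of the 10 genes, as in 66.9% of all genes. The exception was Nfe2l2. This count depends on the scaling. With quantile normalization Gclc, Nqo1 and Srxn1 also read lower in array 2. Their differences were -0.13, -0.34 and 0.26 in array 1 and -0.37, -0.42 and 0.21 in array 2. Scaled to genes with a mean of at least 5 they did so too, as did Gclc and Nqo1 with equal 75th percentiles. The gaps below are not rescaled. The median gap was 0.67 over the 10 genes and 0.22 over all genes. The mean difference from wild type was larger than this gap in Nfe2l2, Nqo1 and Srxn1, 3 of 10 genes against 37% of all genes. On the deposited values 1 of the 10, Slc7a11, was at least 2-fold apart between the depleted arrays, at 2.37-fold, as were 12.3% of all genes. After adding the pseudocount of 0.248 it was 0 of 10, against 9.06% of all genes. In depleted array 2 M cell markers summed to 465, against 330 in wild type and 348 in depleted array 1. Epithelial markers summed to 664, 766 and 873 in wild type and the depleted arrays. These sums are not rescaled, and genes with a mean of at least 5 had a median difference of 0.26 in array 2. Absorptive enterocyte markers (769, 907 and 1040) and T cell markers (15.5, 12.2 and 19.9) were also highest there. Goblet cell (485, 778 and 652) and Paneth cell markers (271, 444 and 325) were highest in array 1. The part of these markers in the split was not tested. In RNA from bulk epithelium, fewer cells of a type and less RNA per cell cannot be told apart.

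**Figure D3:**
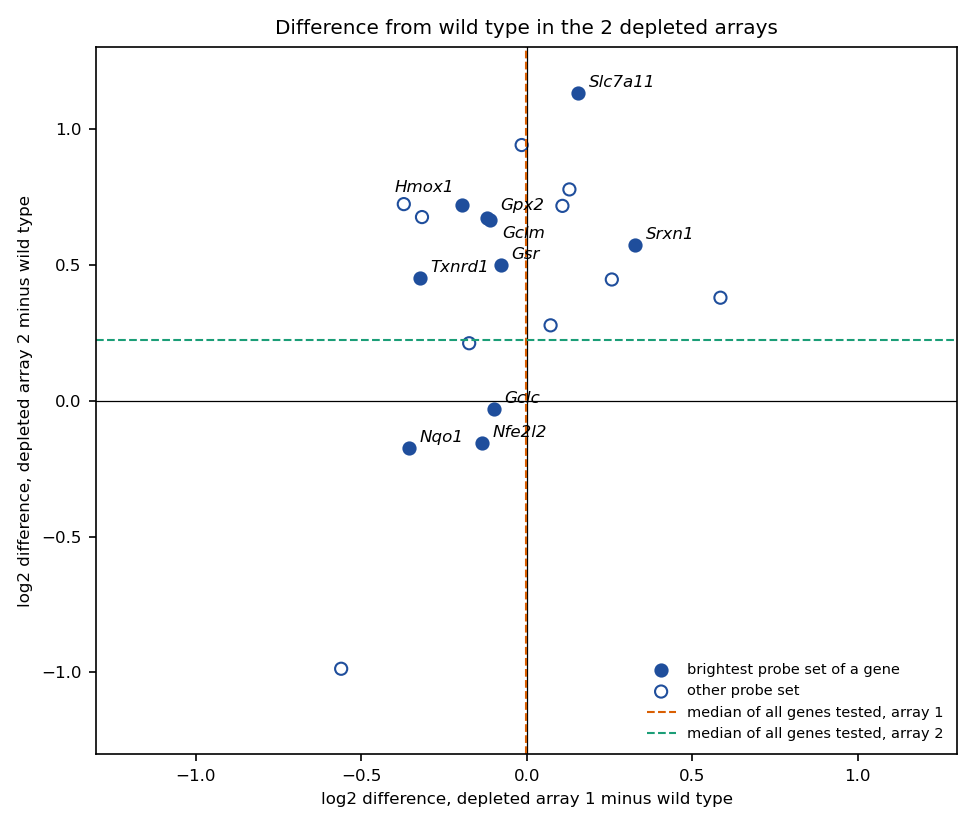
Log2 difference from wild type of each probe set in depleted array 1 (horizontal axis) and in depleted array 2 (vertical axis), with filled points for the brightest probe set of a gene and dashed lines at the medians of all genes tested, -0.003 and 0.22. Hmox1, Gclm, Gpx2, Gsr and Txnrd1 lie in the upper left part, and Nfe2l2, Nqo1 and Gclc in the lower left.

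Lists of related genes are read against all genes tested, of which 39% were above wild type in both depleted arrays and 19.5% below in both. These shares depend on the scaling. They were 30.9% and 29.4% after quantile normalization, 34.2% and 26.1% with equal 75th percentiles, and 29% and 31.1% when scaled to genes with a mean of at least 5. The counts of the lists moved too, so no direction is read from them.

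The proteins that control Nrf2 gave 12 tested genes of 12 listed, with 7 above wild type in both depleted arrays, 0 below in both and 0 called. After quantile normalization, and when scaled to genes with a mean of at least 5, 6 were above in both and 4 below in both. With equal 75th percentiles it was 6 and 2. Their median differences were 0.19 and 0.39. With probe sets averaged the median in depleted array 1 was -0.24. Keap1, the sensor that holds Nrf2, read 5.68 in wild type, 6.18 in depleted array 1 and 5.81 in depleted array 2. Bach1, the competing repressor, read 30.1, 27.1 and 33.0 in the same order. In depleted array 2 both lay below wild type under each of the 3 other scalings, by -0.22 to -0.15 for Keap1 and -0.21 to -0.06 for Bach1 on the log2 scale. Maff, a small Maf partner of Nrf2, read 11.9 against 18.4 and 17.2. Bach2, a repressor related to Bach1 and well known from B cells, read 1.66 against 2.27 and 4.28, while its other probe sets read 1.03 against 0.677 and 0.892, and 0.753 against 0.259 and 0.645. Dpp3, a peptidase that binds Keap1, read 4.44 against 5.78 and 7.46 in its probe set of highest mean, and 4.55 against 2.97 and 5.03 in the other.

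Among genes for the making, breakdown and transport of glutathione, 13 of 16 were tested, 5 were above wild type in both depleted arrays, 3 below in both and 0 called. The median differences were -0.04 and 0.21, close to those of all genes. After quantile normalization 5 were above in both and 6 below. When scaled to genes with a mean of at least 5 it was 3 and 5, and with equal 75th percentiles 7 and 4. Chac1, which breaks glutathione down inside cells and is a target of the ATF4 stress pathway, read 0.249 in wild type, 1.85 in depleted array 1 and 2.12 in depleted array 2. Both depleted values were well above wild type, and the difference was 2.17 on the log2 scale (SE 0.58, limma adjusted p = 0.158). The wild type value lay at the pseudocount, so the size depends on it. Chac1 also passed the filter only because it was high in the depleted arrays, so its tests are not independent of that choice and nothing is supported with them. Limma gave an adjusted p = 0.0204 in the fit that averaged the probe sets of each gene, although Chac1 has only 1, and an adjusted p = 1 with no filter. Over the other settings that tested it, limma gave adjusted p from 0.0849 to 0.9999. Gss, glutathione synthetase, read 21.9 against 18.0 and 15.5, and its other probe set 18.5 against 15.2 and 21.3. Cbs, which starts the route from homocysteine to cysteine, read 1.15 against 0.896 and 0.693.

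Of 13 listed peroxidases, glutaredoxins and glyoxalases 8 were tested, with 2 above wild type in both, 2 below in both and 0 called. After quantile normalization 0 were above in both and 3 below. With equal 75th percentiles it was 3 and 3, and when scaled to genes with a mean of at least 5 it was 1 and 3. Gpx4, which reduces lipid peroxides, read 26.04 in wild type, 36.4 in depleted array 1 and 31.2 in depleted array 2. With quantile normalization its difference in depleted array 2 turned to -0.08, and scaled to genes with a mean of at least 5 to -0.003. Hagh, a glyoxalase, read 21.4 against 19.5 and 18.7, while another of its probe sets read 9.27 against 12.8 and 13.5. Glo1, its partner in the removal of methylglyoxal, read 32.4 against 33.5 and 44.5, and with quantile normalization its difference in depleted array 1 was -0.01.

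Glutathione S-transferases, which attach glutathione to electrophiles, gave 20 tested genes of 23, with 9 above wild type in both depleted arrays, 2 below in both and 0 called. After quantile normalization 6 were above in both and 7 below. With equal 75th percentiles it was 10 and 3, and when scaled to genes with a mean of at least 5 it was 9 and 3. Many of these genes are near copies, so a probe set of one may hold signal of another. Gstt2 read 1.995 in wild type, 3.50 in depleted array 1 and 3.44 in depleted array 2. Gsta4, which conjugates products of lipid peroxidation, read 31.8 against 38.9 and 48.3. Gstm4 was dim, at 0.550 against 0.794 and 1.07. It passed the filter of 0.598 only through the depleted arrays, so its place among the 9 is not independent of that choice. The median differences of the list were 0.02 and 0.36, and -0.01 and -0.01 with quantile normalization.

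Thioredoxins, peroxiredoxins and their partners gave 12 tested genes of 15, with 6 above wild type in both, 1 below in both and 0 called. After quantile normalization 3 were above in both and 5 below. When scaled to genes with a mean of at least 5 it was 3 and 2, and with equal 75th percentiles 4 and 2. Msrb1, a selenoprotein that repairs oxidised methionine, read 5.84 in wild type, 9.03 in depleted array 1 and 11.9 in depleted array 2. Both depleted arrays were above wild type, by 0.61 and 0.99. Txnrd2, the mitochondrial relative of Txnrd1, read 1.89 against 0.986 and 1.32, while 1 of its other probe sets read 0.888 against 1.49 and 1.10. Txnl1, a thioredoxin-like protein, read 22.8 against 27.1 and 30.1, and with the mean of its probe sets its difference in depleted array 1 turned to -0.12.

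Enzymes that supply NADPH, the electron source of Gsr and Txnrd1, gave 9 tested genes of 10, with 4 above wild type in both, 0 below in both and 0 called. After quantile normalization 4 were above in both and 1 below. With equal 75th percentiles it was 4 and 0, and when scaled to genes with a mean of at least 5 it was 4 and 2. Their median differences were -0.01 and 0.60. With quantile normalization these were -0.11 and 0.25. Me1, malic enzyme, read 9.51 in wild type, 12.2 in depleted array 1 and 15.1 in depleted array 2, and its other probe set read 7.48, 13.5 and 14.4. Tkt, transketolase, read 61.9 against 69.6 and 85.1. Nnt, the mitochondrial transhydrogenase, read 33.7 against 53.8 and 51.4, but its dimmer probe sets read 6.46 against 9.20 and 6.87, and 0.374 against 0.315 and 0.054.

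Other conjugating, reducing and exporting enzymes, many of them known Nrf2 targets, gave 15 tested genes of 19, with 6 above wild type in both, 3 below in both and 0 called. After quantile normalization 2 were above in both and 5 below. When scaled to genes with a mean of at least 5 it was 1 and 4, and with equal 75th percentiles 2 and 3. Ces1g, a carboxylesterase, read 3.63 in wild type, 2.36 in depleted array 1 and 2.35 in depleted array 2. Abcc3, an exporter of conjugates, read 22.5 against 15.0 and 18.3. Ptgr1, a reductase of prostaglandins and alkenals, read 23.2 against 28.1 and 26.02, and its difference in depleted array 2 turned to -0.16 with quantile normalization. The medians of the list were -0.06 and 0.16.

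The heme and iron list gave 11 tested genes of 12, with 5 above wild type in both, 1 below in both and 0 called. With quantile normalization 5 were above in both and 5 below. It was 5 and 2 with equal 75th percentiles, and 5 and 3 when scaled to genes with a mean of at least 5. Slc48a1, a heme carrier of endosomes and lysosomes, read 0.782 in wild type, 1.91 in depleted array 1 and 2.84 in depleted array 2. That is a difference of 1.33 on the log2 scale (SE 0.55), not called (limma adjusted p = 0.9997), while its other probe set read 2.04 against 1.26 and 1.99. Slc40a1, the iron exporter ferroportin, read 2.35 against 4.54 and 3.50, and its other probe set 1.25 against 1.70 and 4.43. Ireb2, which senses iron, read 8.09 against 10.6 and 11.0. The medians of the list were -0.13 and 0.41.

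Sources and removers of oxidants gave 8 tested genes of 13, with 2 above wild type in both, 1 below in both and 0 called. With quantile normalization 0 were above in both and 4 below. It was 1 and 1 with equal 75th percentiles and also when scaled to genes with a mean of at least 5. Sod1, the cytosolic superoxide dismutase, read 113 in wild type, 122 in depleted array 1 and 147 in depleted array 2. Its probe set 1435304_at went the other way, at 5.80 against 4.98 and 3.81. Cat, catalase, read 53.3, 56.2 and 55.8, both 0.07 above wild type on the log2 scale, and its difference in depleted array 2 was -0.31 with quantile normalization. Noxo1, a subunit that organises the epithelial NADPH oxidase, read 16.6 against 15.8 and 15.9. The medians of the list were -0.13 and 0.32. Among the named genes of these lists, averaging probe sets turned the direction in at least 1 depleted array for Bach2, Dpp3, Glo1, Hagh, Keap1, Nnt, Sod1 and Txnl1. At least 1 of the 3 other scalings did so for Bach1, Cat, Glo1, Gpx4, Keap1 and Ptgr1. With quantile normalization the medians of the 9 lists in depleted array 2 lay between -0.10 and 0.25, and those of 5 lists were below 0. With equal 75th percentiles they lay between -0.03 and 0.41, with only the list of other enzymes below 0. Scaled to genes with a mean of at least 5 they lay between -0.10 and 0.34. There the lists of glutathione synthesis, thioredoxins and other enzymes were below 0.

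**Figure D4:**
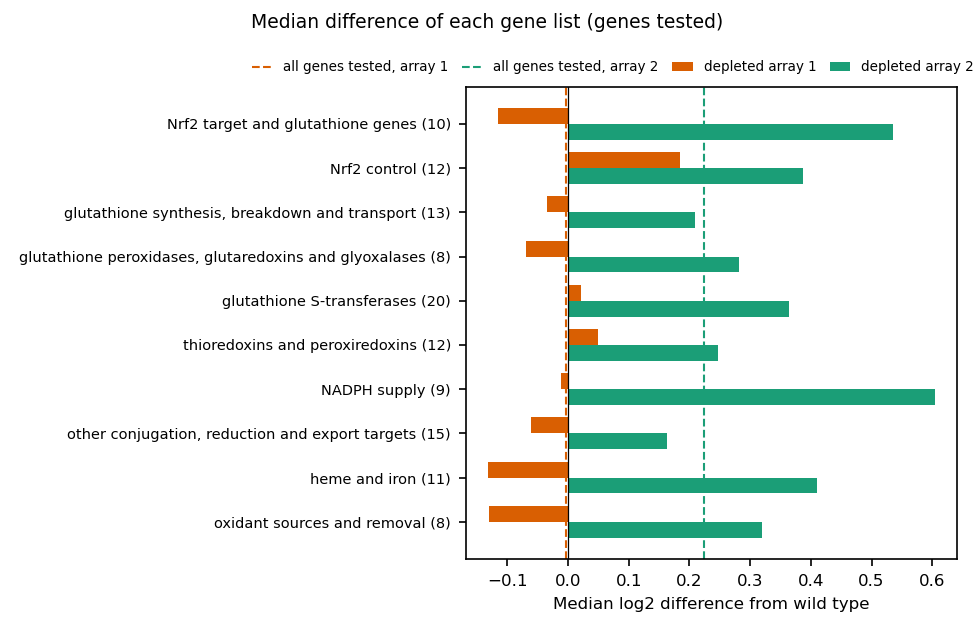
Median log2 difference from wild type of the 10 Nrf2 target and glutathione genes and of 9 lists of related genes in depleted array 1 (orange) and depleted array 2 (green), with the number of genes tested in brackets and dashed lines at the medians of all genes tested. The 10 genes sit at -0.12 and 0.54 and the NADPH list at -0.01 and 0.60.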

How the data were processed

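The authors deposited 1 linear intensity for each of 45101 probe sets on each array. The submitters' processing notes name MAS5. Each array has a median of 1. Neither scanner files nor detection calls were used. Names came from the platform annotation, and those without exactly 1 symbol were left out.

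The probe set of highest mean stood for a gene. The 11885 genes with a mean of at least 0.598, the 40th percentile, were tested, and all 10 members passed, Slc7a11 only through depleted array 2. Values were taken as log2(value + 0.248), the 25th percentile of all values. Depleted and wild type arrays were compared with limma 3.58.1 in R 4.3.3 (lmFit, eBayes with an intensity trend), with Benjamini-Hochberg adjustment over all genes. There was 1 residual degree of freedom per gene, and eBayes added 600 prior degrees of freedom. Nothing says that the 2 depleted arrays come from separate animals, so p-values measure only the spread between these arrays, which may be technical. That spread is pooled over genes of like intensity, and it holds the shift of depleted array 2 as a whole. With quantile normalization the SE went from 0.39 to 0.21 for Gsr and from 0.40 to 0.24 for Gpx2. It stayed at 0.62 for Slc7a11. SEs and intervals thus depend on the scaling. With 3 arrays the precision is limited. The script was tested on simulated data.

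The members and lists were chosen with earlier results of these data known. Named genes are all members with every probe set, Rbpj, and the 3 genes of each list with the largest difference shared by both depleted arrays, beside markers. Keap1 and Bach1, which that rule did not pick, were named after their values were seen. So were Xist, Eif2s3y, the M cell markers other than Gp2 and Ccl20, and the named B cell, goblet cell, macrophage and dendritic cell markers. The motifs and the 4 printed promoters were also chosen after the values were seen. Sequences came from RefSeq, build GRCm38.p6. Alternatives changed the pseudocount, filter, scaling, choice of probe sets, trend and depleted array.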

Additional observations from a re-analysis of the deposited data

How the results depend on the processing

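Among the 10 genes limma called 0 under the main setting and under each alternative that gives a test. Signs of the mean difference turned for Txnrd1 (-0.13 after quantile normalization, -0.01 when the 75th percentiles were made equal, -0.06 when scaled to genes with a mean of at least 5), for Gsr (-0.02 after quantile normalization) and for Gclc (0.21 when its probe sets were averaged). Leaving out 1 depleted array gave -0.11 to 0.67 for Gclm, -0.12 to 0.67 for Gpx2, -0.08 to 0.50 for Gsr, -0.19 to 0.72 for Hmox1 and -0.32 to 0.45 for Txnrd1, the lower value being without the second depleted array. Signs of these 5 genes thus rest on that array.

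The count of members above wild type in both depleted arrays, 2, went to 1 when the filter was the 60th percentile, which leaves out Slc7a11. It went to 4 when probe sets were averaged and to 6 when each was tested singly, which counts 19 probe sets. Leaving out 1 depleted array gave 2 to 7 genes above wild type, 3 to 8 below it and 0 to 1 at least 2-fold higher. The count of all genes called, 10, was 1 unfiltered, 6 when filtered at the 60th percentile, 4 after quantile normalization, 4 when the 75th percentiles were made equal and 21 when each probe set was tested singly. The cause was not tested.

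No paired analysis was possible because the wild type group has 1 array and its label carries no number. A fit without a depleted array leaves no residual degrees of freedom, so those values have no test.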
